A study of Mus musculus with 6 samples.

Results

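The genes for proteins of the centrosome and of microtubule nucleation were examined in fully-grown oocytes (FGOs) at the germinal vesicle (GV) stage, taken from wild type (WT) and from Lsm14b-KO mice. Members were the genes whose symbol begins with Cep, Haus or Tubgcp followed by a number, which gave 49 of the 24255 genes in the expression table, with 36 Cep, 8 Haus and 5 Tubgcp symbols. One of them, Cep83os, is a long non-coding RNA that starts beside Cep83, and the other 48 are protein coding. The WT group and the Lsm14b-KO group held 3 RNA-Seq libraries each, with 20 oocytes per library. Lsm14b encodes a member of the LSM14 group of RNA-binding proteins, and Lsm14b-KO females are homozygous for the tm1a allele, a reporter-tagged insertion, kept on a C57BL/6J background. The allele is present in every cell of the animal and not in oocytes alone. All females, of both genotypes, had received 5 IU of PMSG, which stimulates ovarian follicles, 46 h before collection. The age of the females used for these libraries is not given in the sources used here, nor is it stated which libraries came from separate animals, so the tests measure the spread between libraries.

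Centrosomes of most animal cells hold a pair of centrioles inside a cloud of pericentriolar material, and many CEP proteins are named for their place there. Mouse oocytes lose their centrioles during growth and build the meiotic spindle from several acentriolar microtubule organizing centers. On these, the gamma-tubulin ring complex, whose GCP subunits are encoded by the Tubgcp genes, starts new microtubules. The HAUS proteins form augmin, a complex of 8 subunits that brings the gamma-tubulin ring complex to the sides of existing microtubules. Other CEP proteins serve cilia, appendages of the mother centriole or cell division.

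Expression was measured as FPKM, fragments scaled to transcript length and sequencing depth, so levels of different genes can be set side by side. Values of single libraries are given in the order of replicates 1, 2 and 3. The sums of FPKM ran from 1141324 to 1244182 in the WT libraries and from 564671 to 1029728 in the Lsm14b-KO libraries. The files give no read totals, and only a relative depth could be read from the steps between low FPKM values. With WT replicate 1 set to 1, it was 1.03 to 1.14 in the other WT libraries and 1.33 to 2.17 in the Lsm14b-KO libraries. The targeted gene had 2.77, 3.98 and 1.72 FPKM in WT libraries and was listed at 0, 0 and 0.10 FPKM in the Lsm14b-KO libraries. The fitted log2 fold change was -1.85 (SE 0.25, limma adjusted p = 0.0038), and the exact permutation p over the 6 libraries (two-sided) was 0.1, the lowest possible with 3 libraries against 3. All 12 oocyte markers were above 0 in at least 1 library. Their summed FPKM was 50096 to 62197 in WT and spread more widely in Lsm14b-KO libraries, at 32429 to 80374. The summed FPKM of 12 cumulus and granulosa cell markers was 24.1 to 31.9 in WT and 25.3 to 65.0 in Lsm14b-KO libraries, with Amh, Foxl2 and Inhba at 0 throughout. The higher Lsm14b-KO sums rested mostly on Serpine2, at 58.9 and 34.3 FPKM in replicates 2 and 3. Fshr of the same list was also higher without overlap, at 0.35 to 1.68 FPKM in WT and 1.82 to 2.07 FPKM in Lsm14b-KO libraries. Cyp19a1 went the other way without overlap, at 8.26 to 11.5 FPKM in WT and 3.00 to 5.76 FPKM in Lsm14b-KO libraries. The part of follicle cells in the results was not tested. All 5 red blood cell and all 3 immune markers were at 0 in every library, and the sum of 6 theca and stroma markers stayed between 0.17 and 0.40 FPKM.

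Most members were expressed at a low level. Of the 49 genes, 32 were above 0 in all 6 libraries, 16 were listed at 0 in some of them, and Cep131 was at 0 in all. A mean of at least 5 FPKM in WT FGOs was reached by 6 members. A gene was tested if any library had 1 FPKM or more of it, which took in 6398 genes and 20 members, namely 13 Cep genes, 6 Haus genes and Tubgcp4. Only 13 of the 20 reached 1 FPKM in both groups. Another 5 reached it in Lsm14b-KO libraries alone and 2 in WT libraries alone, so counts over the 20 are descriptions and do not stand for all members. In order of mean WT level the tested genes began with Haus3 at 1261 ± 144 FPKM (SD, n = 3), Cep78 at 46.9 ± 12.2, Cep41 at 44.2 ± 12.0, Cep55 at 27.2 ± 1.14 and Haus1 at 6.26 ± 1.29 (each SD, n = 3). Cep19, Haus8 and the other tested members had WT means between 0.36 and 5.39 FPKM. The neighbours Cep78 and Cep41 did not differ beyond their spread.

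**Figure D1:**
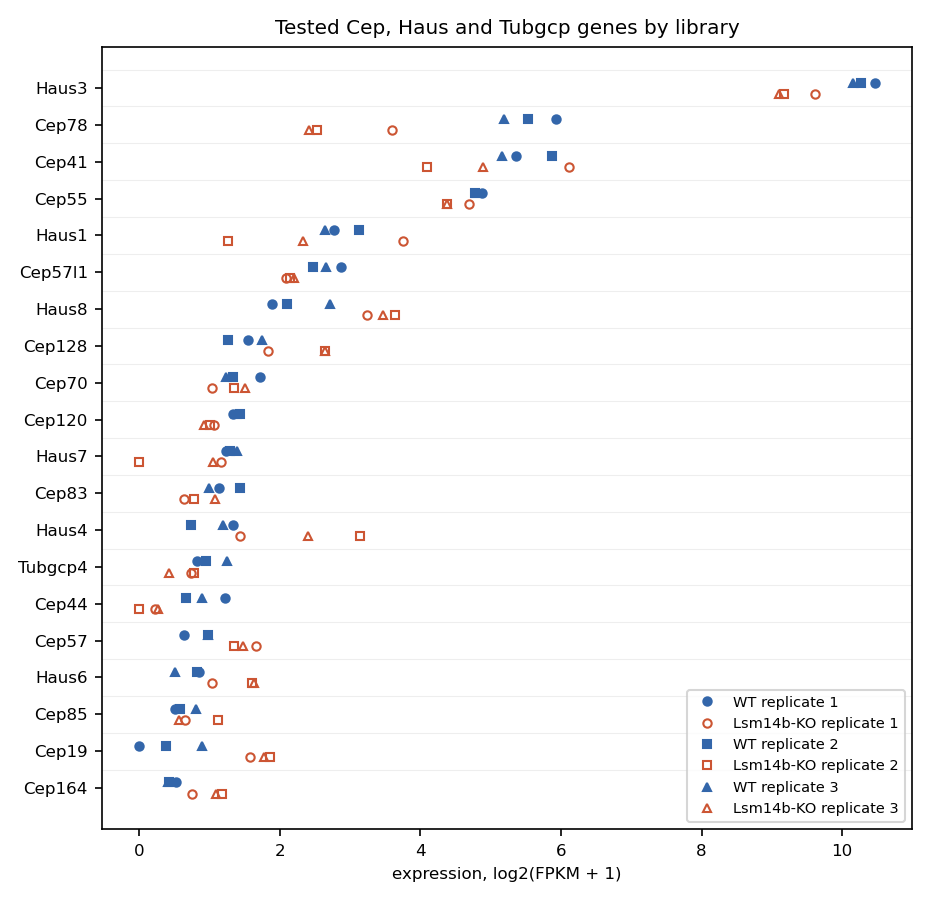
Expression of the 20 tested Cep, Haus and Tubgcp genes in each library, as log2(FPKM + 1), with 3 WT libraries (filled) and 3 Lsm14b-KO libraries (open) and genes ordered by mean WT FPKM. Haus3 stands apart at 1133 to 1417 FPKM in WT libraries, Cep78 is lower in all Lsm14b-KO libraries, and Lsm14b-KO replicate 1 is the highest of the 6 libraries for Cep41 and Haus1.

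Between the genotypes, 5 of the 20 tested members had an adjusted p under 0.05 in limma. Haus8 and Cep19 were higher in Lsm14b-KO FGOs, and Cep78, Haus3 and Cep44 were lower. That is 25.0% of the tested members, beside 21.6% of all tested genes, so the share was near the background. By direction, 2 members were higher against a background of 6.38%, and 3 were lower against 15.2%. At an unadjusted p under 0.05 there were 11 members, beside 39.4% of all genes. The values of the groups did not overlap in 15 of the 20 members (8 lower and 7 higher in Lsm14b-KO), beside 45.0% of all tested genes. The 5 members that reached 1 FPKM in Lsm14b-KO libraries alone and the 2 in WT libraries alone entered through the group where they are high. The median log2 fold change was -0.35 over the tested members and -0.075 over all tested genes. Each library pools 20 oocytes, so less of an mRNA per oocyte and fewer oocytes that hold it cannot be told apart. FPKM is relative to the library, so a lower value does not by itself mean fewer copies per oocyte.

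**Figure D2:**
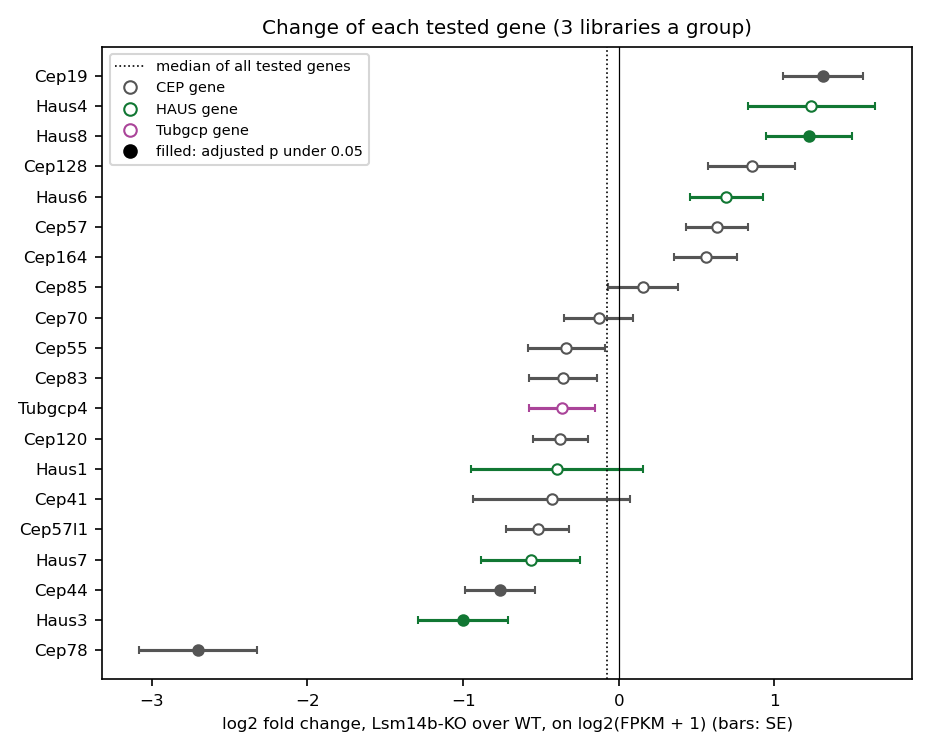
Log2 fold change of the 20 tested members (Lsm14b-KO over WT, on the log2(FPKM + 1) scale) with its SE as bars, from 3 libraries a group; filled points have an adjusted p under 0.05 and the dotted line is the median of all tested genes. Cep78 lies farthest from 0, at -2.70, and the 6 tested HAUS genes fall on both sides.

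Cep78, a protein of the centriole wall that acts in cilium formation, had the largest difference of the tested members on the log2(FPKM + 1) scale. It had 59.8, 45.4 and 35.5 FPKM in WT and 11.1, 4.80 and 4.34 FPKM in Lsm14b-KO FGOs. Every Lsm14b-KO value lay below every WT value, and replicate 1 was the highest of the 3 Lsm14b-KO libraries. The means were 6.96-fold apart, beside 7.52-fold for Cep44, a gene under 2 FPKM in every library. On the log2(FPKM + 1) scale the fold change was -2.70 (SE 0.38, limma adjusted p = 0.00413). It was past the threshold in all 16 alternative settings, with log2 fold changes of -3.07 to -2.08 and adjusted p values of 0.000412 to 0.0348. Cep78 lies on the minus strand of chromosome 19, 15955773 to 15984989 (GRCm38/mm10), overlaps no other annotated gene, and has 15 exons in the transcript used. Its 3′ UTR of 66 bases is far below the median of 844 bases among tested genes.

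Haus3, a subunit of augmin, was the most abundant member and ranked 151 by mean WT FPKM among the 6398 tested genes. It had 1417, 1234 and 1133 FPKM in WT and 783, 574 and 549 FPKM in Lsm14b-KO FGOs, with no overlap. The means were 1.99-fold apart, and the log2 fold change was -1.0 (SE 0.29, limma adjusted p = 0.0442). The call was kept in 5 of 16 alternatives, and among the 6 fits that left out a library it was kept in 1, the one without Lsm14b-KO replicate 1. With all libraries brought to an equal FPKM total (TPM scaling), the log2 fold change was -0.31 (limma adjusted p = 0.258), and after a correction for transcript length and GC content it was -0.42 (limma adjusted p = 0.14). Haus3 alone made up 88.3% to 89.6% of the summed FPKM of the 49 members in WT and 84.0% to 86.7% in Lsm14b-KO libraries.

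Haus3 (chromosome 5, 34153880 to 34169527, minus strand, GRCm38/mm10) overlaps Poln, the gene of a DNA polymerase on the same strand (34007179 to 34169448), over nearly its whole length. Of the 2073 bases of its transcript, 59 are shared with exons of the Poln transcript used. Poln itself had 0.27 to 0.91 FPKM in WT and 0.29 to 0.52 FPKM in Lsm14b-KO libraries.

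The reference promoter window of Cep78 is shown because Cep78 was called under every alternative. It is from RefSeq (GRCm38.p6), 250 bases before to 50 after the start, on the minus strand at chr19:15984940-15985239. CCAAT is not present in it on either strand, so no base is in capitals.
Cep78: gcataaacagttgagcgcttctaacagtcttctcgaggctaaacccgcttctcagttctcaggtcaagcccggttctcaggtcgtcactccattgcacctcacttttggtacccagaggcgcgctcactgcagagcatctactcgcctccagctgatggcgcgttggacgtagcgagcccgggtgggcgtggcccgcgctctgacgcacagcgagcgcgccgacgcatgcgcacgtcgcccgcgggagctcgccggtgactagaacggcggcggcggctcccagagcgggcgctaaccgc

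CCAAT, on either strand, was in 10 of 21 promoter windows of the 18 tested members that had one, and in 37.4% of all 32851 windows. The E-box CANNTG was in 9 of the 21 windows and in 72.3% of all, and TTTGAA on either strand was in 5 of the 21 and in 17.9% of all. These are matches of letters and say nothing about binding.

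The other tested augmin genes had fitted values in both directions. Haus8, the subunit that binds microtubules, had 2.69, 3.29 and 5.55 FPKM in WT and 8.46, 11.5 and 10.1 FPKM in Lsm14b-KO FGOs. The groups did not overlap, the means were 2.61-fold apart, and the log2 fold change was 1.22 (SE 0.28, limma adjusted p = 0.0207). The Haus8 call was kept in 11 of 16 alternatives, among them all 4 that changed the scaling, and in 2 of the 6 leave-out fits, those without WT replicate 3 or Lsm14b-KO replicate 1. Haus8 overlaps Myo9b on the annotation (chromosome 8, 71248561 to 71272934), and the sources used here do not say whether the libraries keep the strand.

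Haus4 and Haus6, which stand close to the threshold, were also fitted higher. Haus4 had 1.53, 0.66 and 1.29 FPKM in WT and 1.71, 7.82 and 4.27 FPKM in Lsm14b-KO FGOs, for a fitted log2 fold change of 1.24 (SE 0.41, limma adjusted p = 0.0639). Haus6, the subunit that contacts the gamma-tubulin ring complex through NEDD1, had 0.80, 0.77 and 0.43 FPKM in WT and 1.05, 2.03 and 2.09 FPKM in Lsm14b-KO libraries, for a fitted log2 fold change of 0.69 (SE 0.23, limma adjusted p = 0.068). In both genes the groups did not overlap and Lsm14b-KO replicate 1 was nearest to WT. Without that library both were past the threshold, Haus4 at a log2 fold change of 1.68 (limma adjusted p = 0.00507) and Haus6 at 0.88 (limma adjusted p = 0.0124). That fit called 45.3% of all tested genes. Haus6 reached 1 FPKM only in Lsm14b-KO libraries, the group where it is high, and with no filter it had a limma adjusted p = 0.133.

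Haus1 and Haus7 were fitted lower without passing the test. Haus1 had 5.82, 7.70 and 5.24 FPKM in WT and 12.4, 1.40 and 4.02 FPKM in Lsm14b-KO FGOs. Replicate 1 was above all WT libraries and the other two below them, and the log2 fold change was -0.40 (SE 0.55, limma adjusted p = 0.602). On the annotation Haus1 overlaps Atp5a1, which lies on the other strand. Haus7 had 1.35, 1.46 and 1.61 FPKM in WT and 1.25, 0 and 1.07 FPKM in Lsm14b-KO libraries, for a fitted log2 fold change of -0.57 (SE 0.32, limma adjusted p = 0.211). Haus2 and Haus5 stayed below 1 FPKM in every library and were not tested. Of the 6 tested augmin genes, 3 were thus fitted higher and 3 lower, with 1 call in each direction. The mean of Haus3 was 202-fold that of the next subunit, Haus1, in WT and 63.4-fold that of the next subunit, Haus8, in Lsm14b-KO FGOs.

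**Figure D3:**
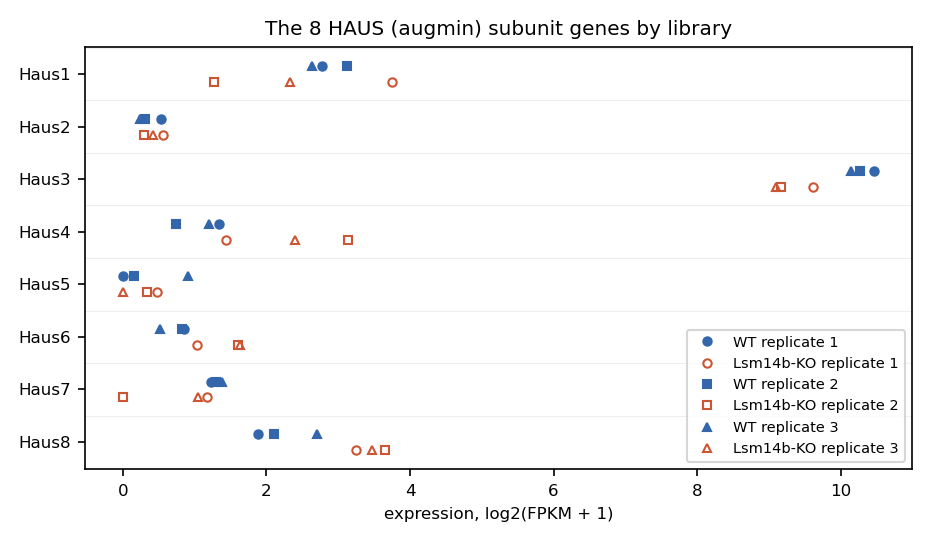
Expression of the 8 HAUS (augmin) subunit genes in each library, as log2(FPKM + 1), with WT libraries filled and Lsm14b-KO libraries open. Haus3 lies at 549 to 1417 FPKM and the other 7 subunits at 0 to 12.4 FPKM; the Lsm14b-KO points lie left of the WT points for Haus3 and Haus7 and right of them for Haus4, Haus6 and Haus8.

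The 5 Tubgcp genes, for subunits of the gamma-tubulin ring complex, had a median WT level of 0.24 FPKM. That was near the 0.27 FPKM of the Cep genes and below the 1.32 FPKM of the Haus genes. The highest value of any of the 5 was 1.39 FPKM. Tubgcp4, a subunit particular to the full ring, had 0.77, 0.93 and 1.39 FPKM in WT and 0.66, 0.72 and 0.34 FPKM in Lsm14b-KO libraries. The groups did not overlap, yet the log2 fold change of -0.36 (SE 0.21, limma adjusted p = 0.229) was not past the threshold. This gene reached 1 FPKM only in WT libraries, the group where it is high. Tubgcp4 overlaps Trp53bp1 and Zscan29 (chromosome 2, 121170654 to 121198770) and shares a stretch of its transcript with Trp53bp1. The core subunit genes Tubgcp2 and Tubgcp3 had mean WT levels of 0.24 and 0.025 FPKM, Tubgcp5 had 0.56, and Tubgcp6 was listed at 0 in all but 1 library.

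Among the remaining Cep genes, Cep19 and Cep44 were called at low levels. Cep19 reached 1 FPKM only in Lsm14b-KO libraries and Cep44 only in WT, so each entered the test through the group where it is high. Cep19, a protein of the ciliary base, was listed at 0, 0.31 and 0.85 FPKM in WT and had 1.98, 2.62 and 2.42 FPKM in Lsm14b-KO libraries. The fitted log2 fold change was 1.31 (SE 0.26, limma adjusted p = 0.0137), and the call was kept in 11 of 15 alternatives. Cep19 lies on chromosome 16, 32099800 to 32108069, and overlaps no other annotated gene. Cep44, which acts in the conversion of centrioles to centrosomes, had 1.33, 0.58 and 0.86 FPKM in WT and 0.17, 0 and 0.20 FPKM in Lsm14b-KO libraries. The fitted log2 fold change was -0.76 (SE 0.22, limma adjusted p = 0.0459), a call kept in 2 of 15 alternatives and lost with no filter (limma adjusted p = 0.0674). Cep44 is on chromosome 8, 56531522 to 56551047.

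Cep41 and Cep55, the next most abundant Cep genes after Cep78, were not past the threshold. Cep41, which promotes glutamylation of tubulin in cilia, had 40.1, 57.7 and 34.8 FPKM in WT and 68.3, 16.1 and 28.7 FPKM in Lsm14b-KO FGOs. As with Haus1, Lsm14b-KO replicate 1 lay above all WT libraries and the other two below them. The log2 fold change of Cep41 was -0.43 (SE 0.50, limma adjusted p = 0.533) and without that library -0.97 (limma adjusted p = 0.0446). In the fit without that library, 45.3% of all tested genes were called. Cep55, which acts in the abscission step of cell division, had 28.5, 26.3 and 26.9 FPKM in WT and 24.8, 19.8 and 19.8 FPKM in Lsm14b-KO libraries, for a fitted log2 fold change of -0.34 (SE 0.25, limma adjusted p = 0.324).

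The paralogs Cep57 and Cep57l1, of which Cep57 is a protein of the pericentriolar material, were fitted in opposite directions. Cep57 had 0.56, 0.97 and 0.97 FPKM in WT and 2.17, 1.54 and 1.79 FPKM in Lsm14b-KO libraries, with a log2 fold change of 0.63 (SE 0.20, limma adjusted p = 0.0579). Cep57l1 had 6.35, 4.54 and 5.30 FPKM in WT and 3.24, 3.42 and 3.61 FPKM in Lsm14b-KO libraries, with a log2 fold change of -0.52 (SE 0.20, limma adjusted p = 0.1). Neither pair of groups overlapped and neither gene passed the test. The Cep57l1 difference was 0.049 under TPM scaling, where Cep57 had 1.04 (limma adjusted p = 0.0281). Cep57 reached 1 FPKM only in Lsm14b-KO libraries, the group where it is high, and with no filter it had a limma adjusted p = 0.112.

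The tested members that encode appendage proteins of the mother centriole, Cep83, Cep128 and Cep164, stayed below 6 FPKM. Cep128, of the subdistal appendages, had 1.93, 1.40 and 2.36 FPKM in WT and 2.58, 5.24 and 5.24 FPKM in Lsm14b-KO libraries (log2 fold change 0.85, SE 0.28, limma adjusted p = 0.0608). Cep164, of the distal appendages, had 0.33 to 0.43 FPKM in WT and 0.69 to 1.26 FPKM in Lsm14b-KO libraries (log2 fold change 0.56, limma adjusted p = 0.0817). Both had groups that did not overlap, and both were past the threshold without Lsm14b-KO replicate 1, the library of that group nearest to WT. That fit called 45.3% of all tested genes. Cep164 reached 1 FPKM only in Lsm14b-KO libraries, the group where it is high, and with no filter it had a limma adjusted p = 0.122. Cep83, another distal appendage gene, had 0.98 to 1.70 FPKM in WT and 0.56 to 1.10 FPKM in Lsm14b-KO libraries, with overlap. The last 3 tested members, Cep70, Cep85 and Cep120, ran from 0.42 to 2.28 FPKM over all libraries, with adjusted p values of 0.679, 0.615 and 0.149 in limma.

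The 29 members that were not tested, 23 Cep, 2 Haus and 4 Tubgcp genes, reached at most 0.97 FPKM. They include Cep152 and Cep63, a pair that recruits the centriole duplication kinase Plk4, and Cep192, a scaffold of the pericentriolar material that also builds oocyte microtubule organizing centers. Cep192 had 0.096, 0.22 and 0.22 FPKM in WT and 0.27, 0.51 and 0.37 FPKM in Lsm14b-KO libraries. In 5 of the 28 that were above 0 in some library (17.9%) the groups did not overlap, beside 14.9% of the 7927 genes of this kind. They are named after their values were seen: Cep192, Cep170b and Cep72 had higher and Cep170 and Cep95 lower values in Lsm14b-KO libraries. With no filter on low values, 48 members could be fitted and 2 were called, Cep78 and Cep19, beside 5.03% of the 14325 genes above 0.

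The spread among the Lsm14b-KO libraries bore on many of these values. Lsm14b-KO replicate 1 was the nearest of the 3 to the WT mean in 12 of the 20 tested members (60.0%), beside 55.8% of all tested genes. Without it 11 members were called, 6 higher and 5 lower, beside 45.3% of all tested genes, with 3 WT and 2 Lsm14b-KO libraries left. Without WT replicate 1, WT replicate 2 or Lsm14b-KO replicate 3, the only member called was Cep78, beside 6.19%, 6.21% and 4.92% of all tested genes. Without WT replicate 3, 3 members were called, beside 7.22% of all tested genes. Without Lsm14b-KO replicate 2, 2 members were called, beside 13.5%.

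The FPKM sums were lower in the Lsm14b-KO libraries, and the directions of the calls depended on the scaling. As deposited, 2 of 5 called members were higher. Under TPM scaling 3 of 4 were higher (Cep19, Cep57 and Haus8) and 1 lower (Cep78), beside 13.0% higher and 7.60% lower of all tested genes, and the median of all tested genes moved to 0.40. After the length and GC correction 4 of 5 were higher (Cep19, Cep57, Haus4 and Haus8) and 1 lower (Cep78), beside 10.2% and 12.5% of all tested genes, and that median moved to 0.10. With median centring 5 of 6 were higher, beside 8.52% higher and 13.4% lower of all tested genes. With quantile normalization 2 of 4 were higher, beside 8.44% and 11.5%. Cep78, Cep19 and Haus8 were thus called with the same sign under all 4 other scalings, and Haus3 under none of them.

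**Figure D4:**
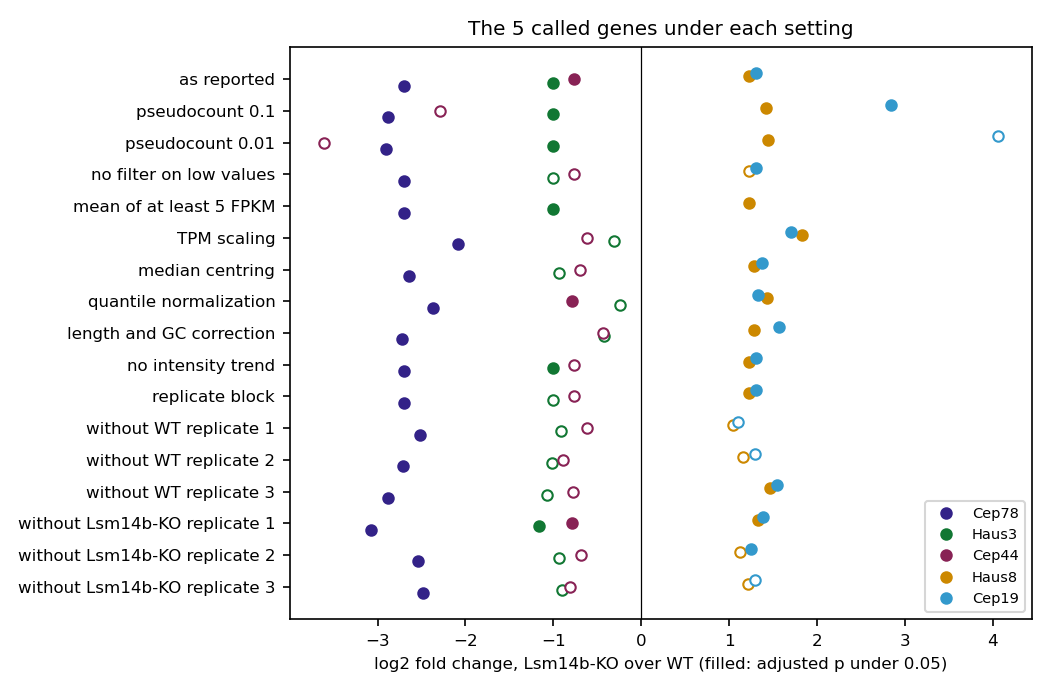
Log2 fold change of the 5 called members (Lsm14b-KO over WT) under the reported setting and each alternative, with filled points where the adjusted p was under 0.05. Cep78 is filled in every row, at -3.07 to -2.08, whereas Haus3 and Cep44 are open in most rows.

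The choice of members did not use transcript length. Across the 20 tested members, Pearson's r between log2 transcript length and log2 fold change was 0.11 and Spearman's rho 0.20. Across 6318 tested genes with a known length they were 0.33 and 0.36, with longer transcripts higher in Lsm14b-KO libraries. The genes were measured in the same libraries, so both correlations are descriptions with no test. The median transcript length was 2577 bases in the members and 2250.5 bases in the tested genes.

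The 3′ UTRs of the members were searched on the sense strand for CCTCTC, a hexamer the study connects with LSM14B, for the cytoplasmic polyadenylation element TTTTAT, and for AATAAA, the poly(A) signal. The hexamer CCTCTC was in 7 of the 20 tested members and in 30.2% of 5825 tested genes with a 3′ UTR, TTTTAT in 10 of 20 and 54.6%, and AATAAA in 18 of 20 and 82.5%. None of the 5 called members held CCTCTC in its 3′ UTR. The study placed only a minority of LSM14B binding sites in 3′ UTRs, and the other parts of these transcripts were not searched. Their 3′ UTRs were 66 bases (Cep78), 92 (Haus3), 168 (Cep44), 269 (Haus8) and 802 (Cep19). That of Cep19 is near the median of 844 bases among tested genes, and that of Haus8 holds no AATAAA. The poly(A) signals of the other 4 called members are printed in 30-base windows with the motif in capitals. After them comes the first CCTCTC site of each of 3 of the 7 uncalled members that hold it. Sequences are the sense strand of GENCODE vM21 transcripts (GRCm38), and the window positions are chr19:15955777-15955806, chr5:34153918-34153947, chr8:56531527-56531556 and chr16:32108027-32108056 for the poly(A) signals, and chr12:90998784-90998813, chr9:45767787-45767816 and chr6:30655090-30655119 for the hexamer.
Cep78 poly(A) signal: ccttcaaattttAATAAAttttcttatgtt
Haus3 poly(A) signal: gaagactatctaAATAAAagatgttgtaga
Cep44 poly(A) signal: ttttcattcttaAATAAAtacttttaatat
Cep19 poly(A) signal: tattattcattgAATAAAgctgtgaccgta
Cep128 hexamer: catcccaacaccCCTCTCttggctcagtgg
Cep164 hexamer: atcatacccgtcCCTCTCtttttgcctttt
Cep41 hexamer: gtgcaaaatgatCCTCTCcttaaatggttt

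The signals begin 21 bases (Cep78), 56 bases (Haus3), 23 bases (Cep44) and 31 bases (Cep19) from the annotated 3′ end. Cep128 and Cep164 were fitted higher and Cep41 lower in Lsm14b-KO FGOs. Of the members with CCTCTC that are not printed, Cep85 was fitted higher and Cep120, Cep70 and Tubgcp4 lower. Cep164, Cep41 and Cep85 hold 2 such sites each. A match of these letters is not a binding site.

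Genes of the same structures under other names were counted from a list of 58 symbols, of which 50 were in the table and 26 were tested. The other 8 symbols had no row, 7 of them older names of Cep genes. Of the 26, 4 were called in limma, 1 higher and 3 lower, which is 15.4% beside the 21.6% of all tested genes, and their median log2 fold change was 0.16. Sclt1, a distal appendage protein, had 47.5, 48.7 and 37.1 FPKM in WT and 3.49, 1.17 and 1.13 FPKM in Lsm14b-KO FGOs, for a fitted log2 fold change of -4.04 (SE 0.34, limma adjusted p = 0.000893). Its means were 23.0-fold apart, more than those of any member.

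The other calls concerned the gamma-tubulin ring complex and the mother centriole. Mzt1, a small protein that binds GCP subunits, had 15.7, 14.4 and 11.2 FPKM in WT and 4.38, 5.80 and 6.0 FPKM in Lsm14b-KO libraries (log2 fold change -1.21, limma adjusted p = 0.0144). Nedd1, which anchors the ring complex and is the partner of Haus6, had 9.22, 7.82 and 7.09 FPKM in WT and 3.70, 4.10 and 3.50 FPKM in Lsm14b-KO libraries (log2 fold change -0.92, limma adjusted p = 0.0211). Odf2, a protein of the appendages, had 0.62, 0.53 and 0.94 FPKM in WT and 1.64, 3.25 and 3.88 FPKM in Lsm14b-KO libraries (log2 fold change 1.17, limma adjusted p = 0.0215). In all 4 the groups did not overlap. Among the 26 tested related genes this held for 11, beside 45.0% of all tested genes. Odf2 reached 1 FPKM only in Lsm14b-KO libraries, the group where it is high, and with no filter it was not called (limma adjusted p = 0.0595). Sclt1 was called in all 16 alternatives, Mzt1 and Nedd1 in 11 of 16 each and Odf2 in 9 of 15.

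**Figure D5:**
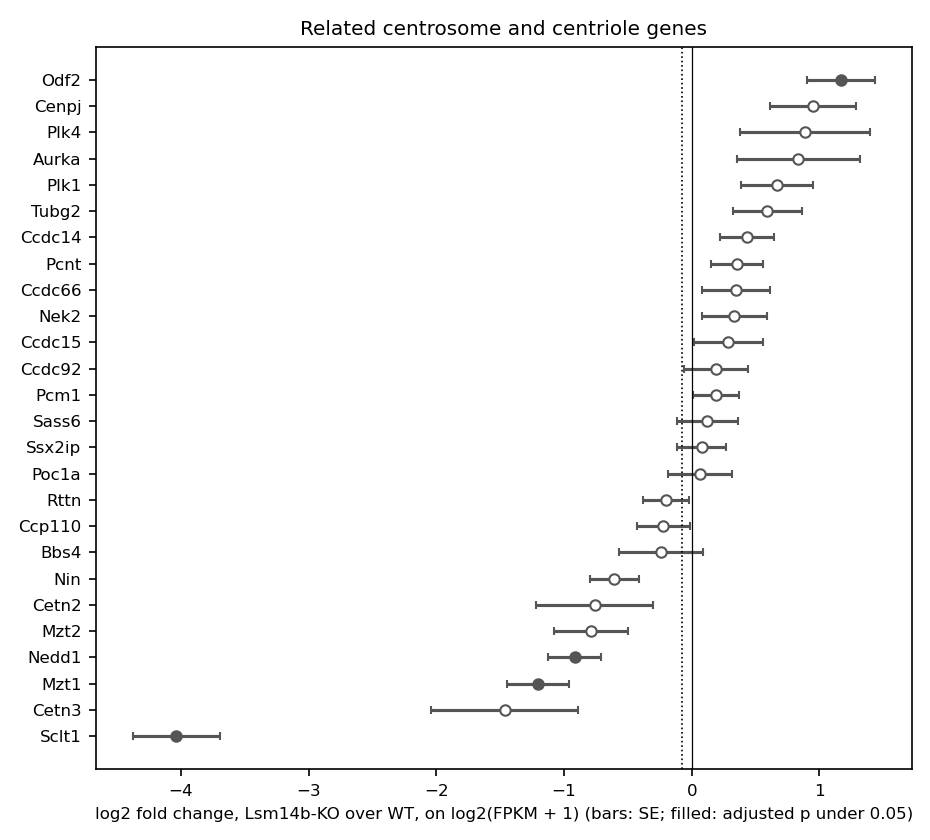
Log2 fold change (Lsm14b-KO over WT, on the log2(FPKM + 1) scale) with its SE for the 26 tested centrosome and centriole genes with other names; filled points have an adjusted p under 0.05 and the dotted line is the median of all tested genes. Sclt1 lies at -4.04, Mzt1 and Nedd1 are lower and Odf2 is higher in Lsm14b-KO FGOs.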

How the data were processed

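Total RNA of 20 GV-stage FGOs per library was amplified by Smart-seq2, per the labels. The deposited FPKM values were made by the authors with TopHat2 2.0.13 on the mm10 genome and Cufflinks 2.2.1, per the submitters' processing notes. The annotation is not given in the sources used here. The deposited columns of fold changes, p-values and q-values of the authors' own comparison were not used.

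Groups were taken from the sample titles. FPKM was transformed to log2(FPKM + 1), and genes with at least 1 FPKM in 1 library entered a linear model in limma 3.58.1, R 4.3.3 (eBayes with an intensity trend, genotype as the only term, two-sided, Benjamini-Hochberg adjustment over the 6398 tested genes, threshold 0.05). On this scale the fold change of a low gene comes out too small. The members, the list of related genes and the tests were chosen with earlier results of these data known. Named with their values were all called members, the 5 largest and 5 smallest log2 fold changes, the 5 highest WT levels, all tested Haus and Tubgcp genes and the 6 related genes with the lowest adjusted p among those called, which were 4. Transcript length, GC content, 3′ UTRs and coordinates came from GENCODE vM21 (GRCm38), for 98.7% of the tested genes. Near-identical copies were searched with blastn 2.17.0 at 95% identity over at least 200 bases. Values of 0 can be failed estimates. Of the promoter windows, only that of Cep78 is printed.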

Additional observations from a re-analysis of the deposited data

How the results depend on the processing

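The counts of calls, the median and the log2 fold changes of all tested members and of the related genes given with values were recomputed under 16 alternatives, or 15 for low genes, which a mean of at least 5 FPKM leaves out. For the 6 tested members outside the naming rule and for the related genes this was added after seeing the data. The sign and call of Lsm14b were kept in the 15 alternatives that tested it. The number of called members (5) was 3 at a pseudocount of 0.01, 2 with no filter, 3 at a mean of at least 5 FPKM and 3 with the replicate block, and 1 to 11 when a library was left out. Over all genes, the share called was 5.03% with no filter and 4.92% to 45.3% when a library was left out. For the other settings of this count no such share was computed. The shares by direction under the other scalings are given above. Members called higher (2) were 1, 1 and 1 at a pseudocount of 0.01, with no filter and at a mean of at least 5 FPKM, 5 with median centring and 4 after the length and GC correction, and 0 to 6 when a library was left out. Members called lower (3) were 1 with no filter, TPM scaling, median centring, the length and GC correction and the replicate block, and 1 to 5 when a library was left out. The related genes called (4) were 2 under TPM scaling, beside 13.0% higher and 7.60% lower of all tested genes. They were 1 to 12 of the 26 tested when a library was left out. The 12 came from the fit without Lsm14b-KO replicate 1, which called 45.3% of all tested genes. The median log2 fold change of the members (-0.35) was -0.0037 with no filter, where 48 members entered, 0.28 under TPM scaling, -0.065 with quantile normalization and -0.12 after the length and GC correction, and -0.34 to -0.085 when a library was left out. The log2 fold changes of members that changed sign, none of them called with the reported settings, were 0.24 (Cep41), 0.33 (Cep55), 0.049 (Cep57l1), 0.13 (Haus1), 0.016 (Cep120), 0.33 (Cep70) and 0.0099 (Cep83) under TPM scaling, 0.044 (Cep55) with quantile normalization, and 0.26 (Haus1), 0.16 (Cep70) and -0.016 (Cep85) after the length and GC correction. Leaving out a library gave -0.97 to 0.037 for Cep41, -1.05 to 0.19 for Haus1, -0.23 to 0.014 for Cep70 and -0.015 to 0.26 for Cep85. The related gene Cetn2 had 0.037 with quantile normalization. The cause of these changes was not tested. The correlation of same-numbered deviations from the group means was 0.19, -0.13 and 0.018. These values cannot show whether libraries of the same number were handled together. A fit without 1 library leaves 2 in its group.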

Other observations

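Cetn2 and Cetn3, centrins and thus small calcium-binding proteins of centrioles, were the most abundant of the related genes and were singled out after their values were seen. Cetn1 was listed at 0 in every library. Cetn2 had 1423, 1228 and 1082 FPKM in WT and 1439, 410 and 659 FPKM in Lsm14b-KO FGOs, for a fitted log2 fold change of -0.76 (SE 0.46, limma adjusted p = 0.243). Cetn3 had 337, 332 and 258 FPKM in WT and 286, 53.9 and 86.9 FPKM in Lsm14b-KO libraries, for a fitted log2 fold change of -1.47 (SE 0.57, limma adjusted p = 0.0997). In both genes Lsm14b-KO replicate 1 lay within or above the WT range and the other two below it, as in Cep41 and Haus1.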
